A study of Caenorhabditis elegans with 6 samples.

Results

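The C-type lectin genes of Caenorhabditis elegans were followed in whole first-stage (L1) larvae of 3 strains. They were taken as every gene whose name is clec followed by a hyphen and a number, a rule that found 240 of the 20190 genes in the deposited count table. All 240 were annotated as protein coding, and 1 name, clec-249, was carried by 2 gene identifiers. HW3826 carries maIs105, an array with a col-19::gfp reporter. The series' design text writes this strain as VT1367 with HW3826 in brackets, and the labels say no more on the naming. GR1395 carries mgIs49, which joins a destabilised GFP under the mlt-10 promoter to a ttx-3 GFP reporter, and 1 label spells the strain GR1935. N2 is the wild type and carries neither array. Larvae of all 3 strains were synchronised by starvation in M9 buffer overnight, then cultured for 4 hours at 25 °C before RNA was taken from whole animals. Each strain had 2 libraries of polyadenylated RNA, 6 in all. Separate cultures for the libraries of a strain are not mentioned in the labels, so p-values cover just the spread among these libraries, possibly a technical one.

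C-type lectins are proteins that hold a C-type lectin-like domain, a fold that in some members binds sugars with the help of calcium. The family is unusually large in C. elegans, and many of its products carry a signal for secretion. Many members are made in the intestine and are known as genes whose RNA changes when worms meet pathogenic bacteria, and others are made in neurons, in the epidermis or in the germ line. The function of most members is unknown.

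Library totals lay between 42593688 and 54957641 counts, and levels are given as CPM, counts scaled by library total. A floor of 3 counts corresponded to 0.0546 to 0.0704 CPM, which covers counting error only. Differences were tested with edgeR's quasi-likelihood test, with all 6 libraries in 1 fit and Benjamini-Hochberg adjustment over the 15024 genes that passed the expression filter. A gene was called where the adjusted p was under 0.05, with no threshold on the fold change. Of the 240 lectin genes, 128 passed the filter and were tested, or 53.3%, against 74.4% of all genes. No sequences of these genes were available for comparison, so reads shared between near-identical members were not assessed, and the sources used here do not give the strand setting of the counting.

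Total lectin RNA spanned a narrow range, and a few genes gave most of the lectin counts. Summed over the 240 genes, the level was 3328 and 3293 CPM in HW3826, 3154 and 3059.8 CPM in GR1395 and 3406 and 3518 CPM in N2. Both GR1395 libraries were lowest and both N2 libraries highest, and the sums spanned 0.306% to 0.352% of all counts. The single gene clec-63 gave 37.6% to 39.9% of the lectin counts of a library. Together with clec-50 and clec-1 it gave 56.5% to 57.7%, and the 10 genes with the most counts gave 70.9% to 72.2%. Without these 3 genes the sum was 1414 and 1426 CPM in HW3826, 1371 and 1303 CPM in GR1395 and 1469 and 1489.9 CPM in N2.

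Per kilobase of deposited gene length, clec-63 had the highest mean over the 6 libraries at 968 CPM per kb. It was followed by clec-50 at 328 and clec-1 at 291 CPM per kb. The next in order were clec-65, clec-150, clec-265, clec-87, clec-83, clec-41 and clec-56, with means between 39.3 and 78.6 CPM per kb. Single libraries of clec-150, clec-265, clec-83, clec-41 and clec-56 lay between 34.3 and 78.4 CPM per kb, so neighbours in this order overlapped. Among these 10 genes clec-87 varied most, with 5.52 to 89.5 CPM per kb in single libraries.

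**Figure D1:**
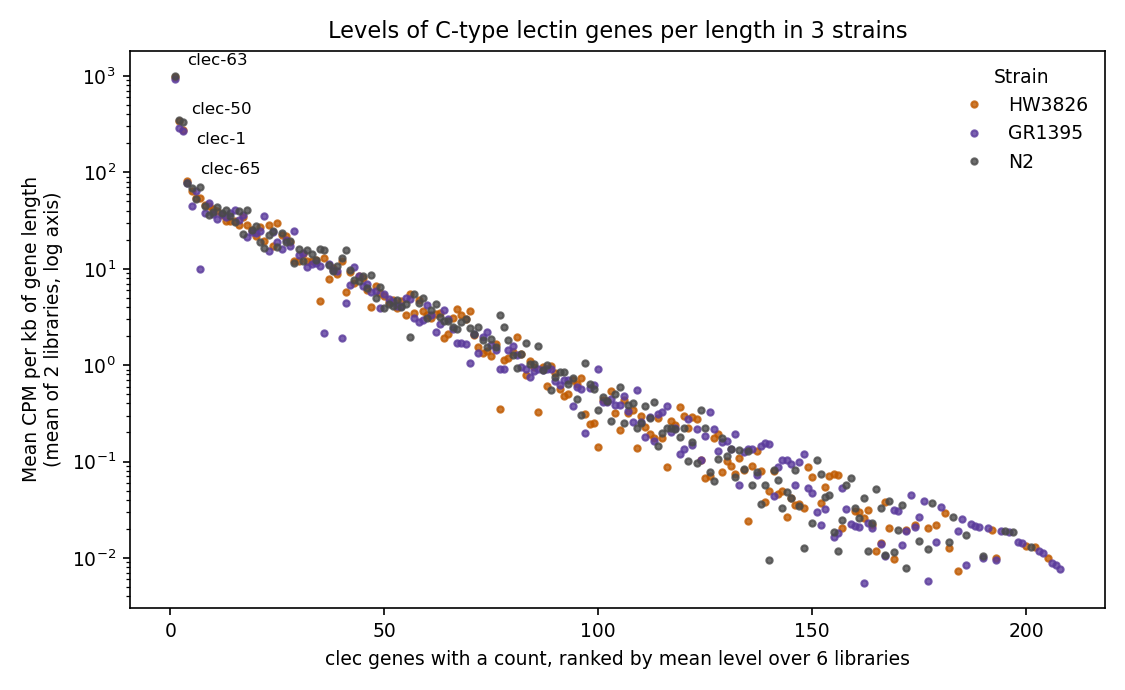
Mean CPM per kilobase of deposited gene length in each strain (mean of 2 libraries, log axis) for the 208 C-type lectin genes with a count in any library, ranked by the mean over all 6 libraries and coloured by strain (HW3826, GR1395, N2). Means of 0 are not drawn. clec-63 stands above all others, and among the 10 highest genes the GR1395 point of clec-87 lies far below those of HW3826 and N2.

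The leading gene clec-63 had 1302 and 1254 CPM in HW3826, 1259.8 and 1186 CPM in GR1395 and 1279.7 and 1344 CPM in N2. No strain stood apart beyond the spread of the test: its log2 fold change was -0.04 in HW3826 against N2 (adjusted p = 0.845) and -0.15 in GR1395 against N2 (adjusted p = 0.231). It lies at II 12895638 to 12897446 on the ce11 assembly (WBcel235), within a run of 5 neighbours from clec-62 to clec-66. Of these 5 genes only clec-66 was called in any comparison.

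Many members were low at this stage. No count was found in any of the 6 libraries for 32 genes, and another 48 genes had at most 3 counts in every library. The mean over the 6 libraries was under 1 CPM for 157 genes, between 1 and 10 CPM for 42, between 10 and 100 CPM for 38 and at least 100 CPM for 3. Of the 157 genes under 1 CPM, 45 passed the filter. A gene below the filter cannot be called unchanged at this depth.

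Many lectin genes, low or not, lay beside each other in the genome. Lectin genes whose starts lay within 20 kb of the next formed 20 runs of 3 or more, which held 106 of the 240 genes. In 7 of the runs, with 33 genes, no gene passed the filter. These runs were clec-93 to clec-99 and clec-114 to clec-116 on chromosome I, clec-121 to clec-123 and the 7 genes from clec-127 to clec-134 on chromosome II, and clec-213 to clec-215, clec-247 with both clec-249 genes, and the 7 genes from clec-250 to clec-257 on chromosome V. In 6 other runs, with 34 genes, every gene passed. The longest run, 13 genes on chromosome V from clec-40 to clec-33, had 12 genes that passed and 1 called gene, clec-26.

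HW3826 was set against N2 to ask which RNAs differ in larvae with the maIs105 array. Of the 128 tested lectin genes, 7 were higher in HW3826 and 13 lower, against 3.54% higher and 2.46% lower among all tested genes. The 20 calls are 15.6% of the tested lectins, beside 6% of all genes. The median log2 fold change of the tested lectins was -0.07, against -0.01 for all genes, and 8 of the 20 calls reached a 2-fold difference. When either HW3826 library or N2 replicate 2 was left out, fewer lectins and fewer genes in all were called. Calls in HW3826 and in GR1395 rest on the same N2 libraries, so their values stand side by side here without a test of their overlap.

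Among lectins known from infection work, neighbours clec-60 and clec-61 on chromosome II were lower in HW3826. Infection with Staphylococcus aureus or Microbacterium nematophilum is known to raise clec-60 in the intestine. clec-61 (II 10488730 to 10490537) had 0.487 and 0.377 CPM in HW3826, 1.07 and 1.18 CPM in GR1395 and 4.13 and 4.12 CPM in N2. Both HW3826 libraries were the lowest and both N2 libraries the highest, with no overlap between any of the 3 strains. In HW3826 it was 9.46-fold lower than in N2 by the edgeR fit (log2 fold change -3.24, SE 0.25, adjusted p = 5.95e-06).

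The neighbour clec-60 (II 10480043 to 10481874) was low in all libraries, with 0.394 and 0.377 CPM in HW3826, 0.200 and 0.296 CPM in GR1395 and 1.64 and 0.959 CPM in N2. Both N2 libraries were above the other 4, but differed from each other by more than the HW3826 libraries did. The edgeR fit gave 3.35-fold lower in HW3826 (log2 fold change -1.74, SE 0.39, adjusted p = 0.0189). Its exons overlap those of WBGene00044046 on the same strand, so its reads are uncertain. Both genes lay below 5 CPM in all libraries.

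clec-4 and clec-41, which have been tied to defence against Bacillus thuringiensis, were higher in HW3826. For clec-4 (II 12578331 to 12581113) the level was 40.4 and 41.98 CPM in HW3826, 26.4 and 25.6 CPM in GR1395 and 23.9 and 23.3 CPM in N2. The HW3826 libraries stood apart from the other 4, and the rise over N2 was 1.74-fold (log2 fold change 0.80, SE 0.08, adjusted p = 5.26e-05). For clec-41 the level was 86.3 and 95.2 CPM in HW3826, 97.3 and 97.3 CPM in GR1395 and 78.2 and 70.0 CPM in N2, and the rise of 1.22-fold in HW3826 was close to the threshold (edgeR adjusted p = 0.0459). clec-42, which has been studied beside them, had 36.5 and 40.5 CPM in HW3826, 44.3 and 38.7 CPM in GR1395 and 52.7 and 44.1 CPM in N2 and was not called (adjusted p = 0.0584 in HW3826 and 0.0718 in GR1395 against N2).

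clec-85 and clec-67 have served as reporters of the PMK-1 p38 kinase pathway, a main route of intestinal defence. clec-85 had 26.5 and 28.6 CPM in HW3826, 33.0 and 28.0 CPM in GR1395 and 36.7 and 39.1 CPM in N2. It was lower in both array strains, with 1.38-fold in HW3826 (edgeR adjusted p = 0.00965), and its exons overlap Y54G2A.40 on the same strand. clec-67 had 22.8 and 27.9 CPM in HW3826, 27.5 and 19.2 CPM in GR1395 and 25.7 and 25.1 CPM in N2 and passed in no comparison, with edgeR adjusted p-values of 0.992 in HW3826 and 0.48 in GR1395 against N2.

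No role is given here for the other genes that changed in HW3826. The largest fall among those above 5 CPM in N2 was that of clec-10 (II 402678 to 404180), with 6.78 and 6.70 CPM in HW3826, against 24.9 and 21.6 CPM in N2. The groups were far apart, and the fit gave 3.45-fold lower (log2 fold change -1.79, SE 0.11, adjusted p = 6.01e-07). clec-86 (X 7139875 to 7140566), whose exons overlap alh-10 on the opposite strand, had 3.49 and 3.39 CPM in HW3826, against 8.36 and 10.2 CPM in N2 and was 2.70-fold lower (log2 fold change -1.43, SE 0.16, adjusted p = 0.000175). Both N2 libraries were more than 4 CPM above both HW3826 libraries. clec-71 on chromosome IV had 4.98 and 6.22 CPM in HW3826, against 11.4 and 13.0 CPM in N2 and was 2.19-fold lower (edgeR adjusted p = 0.00027). clec-82, whose exons overlap Y54G2A.7 on the same strand, had 1.67 and 1.70 CPM in HW3826, against 3.62 and 3.73 CPM in N2 (log2 fold change -1.13, adjusted p = 0.00513). These groups did not overlap.

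Smaller or lower-level falls followed. clec-79 had 0.412 and 0.356 CPM in HW3826, against 1.103 and 1.02 CPM in N2. clec-80 had 6.39 and 5.97 CPM in HW3826, against 9.91 and 9.61 CPM in N2. Their log2 fold changes were -1.46 and -0.66. clec-5 had 22.7 and 23.5 CPM in HW3826, against 29.8 and 36.2 CPM in N2. clec-48 had 35.4 and 30.98 CPM in HW3826, against 48.9 and 45.5 CPM in N2. The log2 fold changes of clec-5 and clec-48 were -0.52 and -0.51, and no HW3826 library reached an N2 library in any of these 4 genes. The remaining falls, clec-7, clec-85 and clec-72, had log2 fold changes of -0.47 to -0.38.

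The largest rise was that of clec-139 (II 4619988 to 4621750), with 5.06 and 4.001 CPM in HW3826, against 1.31 and 1.92 CPM in N2. Both HW3826 libraries were above both N2 libraries, and the fit gave 2.79-fold higher (log2 fold change 1.48, SE 0.23, adjusted p = 0.00217). clec-52 on chromosome IV had 33.5 and 37.4 CPM in HW3826, against 26.0 and 21.1 CPM in N2 and was 1.504-fold higher (edgeR adjusted p = 0.00335). clec-204 had 5.87 and 7.39 CPM in HW3826, against 4.27 and 3.95 CPM in N2. clec-66 had 33.1 and 39.1 CPM in HW3826, against 23.6 and 27.4 CPM in N2. clec-166 had 47.1 and 46.3 CPM in HW3826, against 39.6 and 34.0 CPM in N2. The log2 fold changes of clec-204, clec-66 and clec-166 were 0.69, 0.50 and 0.34, and in each gene both HW3826 libraries were above both N2 libraries.

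Each library was left out in turn, and a call said to end without either library of a strain ended with the first left out and with the second left out. Of the 20 calls, 8 passed in every refit: clec-4, clec-10, clec-52, clec-61, clec-71, clec-82, clec-86 and clec-139. The other 12 ended in at least 1 refit. Calls ended for clec-48 and clec-204 without HW3826 replicate 2 or either N2 library (highest adjusted p 0.316). Calls ended for clec-60 and clec-72 without either HW3826 library or N2 replicate 1 (highest adjusted p 0.156). They also ended for clec-85 without HW3826 replicate 1 (highest adjusted p 0.0702), for clec-80 without HW3826 replicate 2 (highest adjusted p 0.0657), for clec-66 without HW3826 replicate 2 or N2 replicate 1 (highest adjusted p 0.168), for clec-7 without HW3826 replicate 2, either GR1395 library or either N2 library (highest adjusted p 0.401). The same held for clec-5 without N2 replicate 2 (highest adjusted p 0.0635), for clec-166 without either HW3826 library or N2 replicate 2 (highest adjusted p 0.173), for clec-79 without either HW3826 library or either N2 library (highest adjusted p 0.177), for clec-41 without either HW3826 library, either GR1395 library or N2 replicate 2 (highest adjusted p 0.426). Other settings ended the calls of clec-41 with upper-quartile scaling (0.0506) and with only the 4 libraries compared (0.0701), of clec-7 with only those libraries (0.0711), with a stricter filter (0.0522) and with the length trend removed (0.0568), of clec-48 with the length trend removed (0.076), of clec-204 with the stricter filter (0.0501) and of clec-79 in DESeq2 (0.0538), each given as adjusted p.

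GR1395 was set against N2 to ask which RNAs differ in larvae with the mgIs49 array. Of the 128 tested lectin genes, 8 were higher in GR1395 and 25 lower, against 7.93% higher and 8.15% lower among all tested genes. The 33 calls are 25.8% of the tested lectins, beside 16.1% of all genes. The share of higher calls was 6.25% and that of lower calls 19.5%. The median log2 fold change was -0.17, against 0.01 for all genes, and 10 of the 33 calls reached a 2-fold difference. Fewer lectins, and fewer genes in all, were called without either GR1395 library or without N2 replicate 2.

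The infection-linked pair was lower in GR1395 too, by the values given above. clec-60 was 5.39-fold lower than in N2 (log2 fold change -2.43, SE 0.42, adjusted p = 0.00252), and clec-61 was 3.77-fold lower (log2 fold change -1.92, SE 0.22, adjusted p = 0.000227). The level of clec-61 in GR1395 lay between those of HW3826 and N2. The 2 genes clec-39 and clec-49 are known from worms that become more sensitive to Serratia marcescens when they are lost. clec-49 had 15.6 and 16.9 CPM in GR1395, against 23.5 and 24.1 CPM in N2 and was 1.51-fold lower (log2 fold change -0.60, SE 0.10, adjusted p = 0.00248), while the HW3826 libraries, with 24.4 and 21.1 CPM, were not called against N2 (adjusted p = 0.777). clec-39 had 0.750 and 0.587 CPM in HW3826, 0.455 and 0.656 CPM in GR1395 and 0.258 and 0.392 CPM in N2, below 1 CPM in all libraries, and was not called (adjusted p = 0.297 in GR1395 against N2).

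Some members with high levels per length were lower in GR1395. clec-150 (III 1002707 to 1006298) had 55.8 and 49.9 CPM in GR1395, against 71.3 and 93.3 CPM in N2 and was 1.61-fold lower (log2 fold change -0.69, SE 0.12, adjusted p = 0.00639). clec-50 had 289 and 314 CPM in GR1395, against 359.6 and 380.1 CPM in N2. clec-1 had 234 and 256 CPM in GR1395, against 298 and 304 CPM in N2. Both GR1395 libraries were below both N2 libraries in these 3 genes, and the log2 fold changes of clec-50 and clec-1 were -0.34 and -0.34. clec-83, whose exons overlap Y54G2A.7 on the opposite strand, had 40.5 and 34.4 CPM in GR1395, against 44.3 and 43.4 CPM in N2 and lay close to the threshold (edgeR adjusted p = 0.0468). Of the 3 genes above 100 CPM only clec-63 was not called.

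Among the lectins with no role given here, clec-86 had 2.44 and 2.90 CPM in GR1395, against 8.36 and 10.2 CPM in N2 and was 3.60-fold lower (log2 fold change -1.85, SE 0.17, adjusted p = 4.78e-05). clec-82 had 1.24 and 1.46 CPM in GR1395, against 3.62 and 3.73 CPM in N2 and was 2.82-fold lower (log2 fold change -1.49, SE 0.21, adjusted p = 0.000695). clec-205 on chromosome V had 1.58 and 2.16 CPM in GR1395, against 4.25 and 4.49 CPM in N2 and was 2.42-fold lower (log2 fold change -1.28, SE 0.19, adjusted p = 0.00117). The GR1395 libraries were below the N2 libraries in all 3. clec-48 had 21.3 and 27.8 CPM in GR1395, against 48.9 and 45.5 CPM in N2 (log2 fold change -0.99). clec-80 had 5.31 and 5.80 CPM in GR1395, against 9.91 and 9.61 CPM in N2 (log2 fold change -0.86). Both were lower in both GR1395 libraries. clec-258 had 1.29 and 0.952 CPM in GR1395, against 2.18 and 2.27 CPM in N2 (log2 fold change -1.03). clec-210, whose exons overlap srt-56 on the opposite strand, had 2.15 and 1.80 CPM in GR1395, against 2.93 and 4.16 CPM in N2 (log2 fold change -0.90). For clec-258 and clec-210 too, no GR1395 library reached an N2 library. The other falls were clec-10, clec-54, clec-71, clec-72, clec-85, clec-166, clec-170, clec-172, clec-173 and clec-187, with clec-1, clec-49, clec-50, clec-83 and clec-150 described above, and the log2 fold changes of those 10 lay from -0.80 to -0.30. The exons of clec-172 overlap txt-4 on the opposite strand.

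The rises in GR1395 were led by clec-3, a low gene whose exons overlap C41H7.2 on the opposite strand, with 0.206 and 0.189 CPM in HW3826, 1.42 and 1.14 CPM in GR1395 and 0.540 and 0.414 CPM in N2. The GR1395 libraries were highest and the HW3826 libraries lowest, and the fit gave 2.60-fold higher than in N2 (log2 fold change 1.38, SE 0.35, adjusted p = 0.0177). clec-139 had 4.57 and 3.36 CPM in GR1395, against 1.31 and 1.92 CPM in N2 and was 2.37-fold higher (log2 fold change 1.24, SE 0.23, adjusted p = 0.00434). clec-17 (I 12430028 to 12431500) had 14.7 and 17.2 CPM in HW3826, 36.7 and 29.2 CPM in GR1395 and 16.1 and 14.6 CPM in N2. Both GR1395 libraries stood above the other 4, at 2.08-fold over N2 (log2 fold change 1.06, SE 0.11, adjusted p = 0.000146). clec-52 had 36.7 and 38.2 CPM in GR1395, against 26.0 and 21.1 CPM in N2 (log2 fold change 0.63). clec-26, clec-264, clec-84 and clec-41 had smaller rises, with log2 fold changes of 0.35 to 0.46, and the exons of clec-264 overlap fkb-6 on the opposite strand.

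clec-88 had the largest called fall in GR1395. It and clec-87 code for proteins known as chondroitin proteoglycan core proteins of the embryo, and their RNA is known to be made in the germ line of the mother. clec-88 (II 6365722 to 6367002) had 17.2 and 12.0 CPM in HW3826, 1.26 and 3.36 CPM in GR1395 and 12.9 and 18.7 CPM in N2. Both GR1395 libraries were below the other 4, and differed from each other by more than 2-fold. The fit gave 7.21-fold lower than in N2 (log2 fold change -2.85, SE 0.55, adjusted p = 0.0462), and its exons overlap ctsa-4.1 on the same strand. When a single HW3826 or N2 library was left out the call ended (highest adjusted p 0.227). Without GR1395 replicate 2 the log2 fold change was -3.72 (adjusted p = 0.000887). The call also ended with no expression filter (adjusted p = 0.0805), with the length trend removed (0.0504) and with only the 4 libraries compared (0.108). A replicate block ended it too (0.0563).

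clec-87 was not called, with 59.1 and 36.7 CPM in HW3826, 4.93 and 12.7 CPM in GR1395 and 47.2 and 80.0 CPM in N2 and 7.54-fold lower in GR1395 than in N2 (log2 fold change -2.92, SE 0.68, adjusted p = 0.0815). DESeq2 gave clec-87 an adjusted p of 0.000536. clec-91, which was chosen after its values were seen, had 13.3 and 8.67 CPM in HW3826, 0.983 and 2.73 CPM in GR1395 and 9.53 and 17.3 CPM in N2 (log2 fold change -2.93, SE 0.66, adjusted p = 0.0672 in GR1395 against N2, DESeq2 adjusted p = 0.001). In clec-87, clec-88 and clec-91 the GR1395 libraries were the lowest, GR1395 replicate 1 being below replicate 2, and the HW3826 libraries overlapped those of N2.

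Genes of the germ line and of maternal RNA moved beside them. Of 9 such markers, 6 were lower in GR1395 than in N2, beside 8.15% of all tested genes, and the summed level of the 9 was 80.7 to 89.2 CPM in GR1395 and 127.7 to 150.3 CPM in HW3826, against 129.6 to 154.9 CPM in N2. pos-1, a maternal RNA-binding protein of the early embryo, had 40.6 and 27.0 CPM in HW3826, 2.91 and 6.90 CPM in GR1395 and 34.4 and 45.8 CPM in N2. oma-1, a maternal RNA-binding protein of the oocyte, had 8.40 and 6.77 CPM in HW3826, 1.55 and 2.50 CPM in GR1395 and 8.43 and 9.13 CPM in N2. Both were lower in GR1395 than in any other library, as were meg-1, pie-1, oma-2 and nos-2. The count of 6 was 3 without either HW3826 library or N2 replicate 2, and also with no expression filter and with only the 4 libraries compared. None of the 9 markers was at 0 in a whole strain, and pgl-1, glh-1 and nos-1 were not called against N2. The part of germ line or maternal RNA in the lectin values was not tested. In whole animals, fewer cells of a type and less RNA per cell cannot be told apart.

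**Figure D2:**
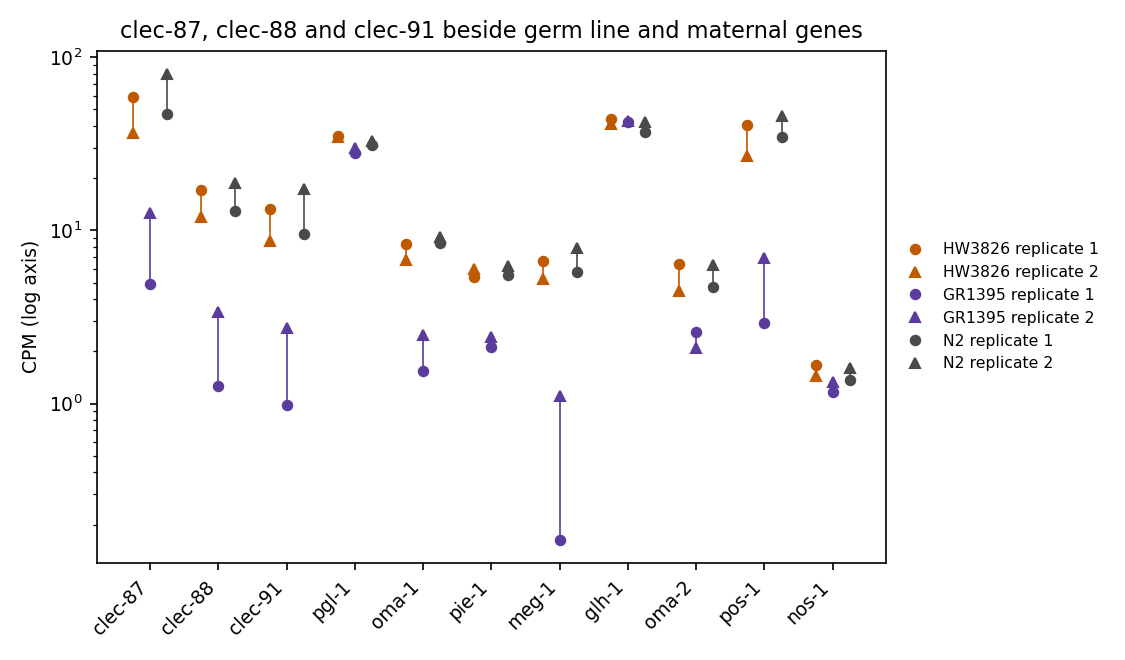
CPM per library on a log axis for clec-87, clec-88 and clec-91 and for 8 of the 9 germ line and maternal markers, coloured by strain (HW3826, GR1395, N2). nos-2 is left out because it had 0 counts in a GR1395 library. GR1395 replicate 1 has the lowest point of clec-87, clec-88, clec-91, pos-1 and meg-1, while glh-1 has 42.4 and 42.6 CPM in GR1395 and 36.9 and 42.01 CPM in N2.

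Some markers of the intestine, where many lectins are made, also differed between strains. The median log2 fold change of the 8 markers against N2 was -0.08 in GR1395 (3 positive, 5 negative). In HW3826 it was 0.14 (7 positive, 1 negative). The 8 intestinal markers summed to 3965 to 4122 CPM in GR1395 and 5085 to 5191 CPM in HW3826, against 4644 to 4737 CPM in N2. In GR1395 and N2 a large part of this sum came from act-5, so the sum does not stand for all 8 markers. In GR1395 act-5, the actin of the intestinal brush border, was lower, with 1857 and 1987 CPM in GR1395, against 2381 and 2489 CPM in N2 (edgeR adjusted p = 0.00965). In the same strain elt-2, the main transcription factor of intestinal genes, was higher, with 16.1 and 13.5 CPM in GR1395, against 10.05 and 8.96 CPM in N2 (adjusted p = 0.00399), and the other 6 markers were not called. Without GR1395 replicate 1 neither call passed. In HW3826 elt-2 was higher than in N2, with 15.3 and 15.3 CPM (adjusted p = 0.00248), and was the only intestinal marker called. No intestinal marker was at 0, and the part of the intestine's share of RNA in the lectin values was not tested. The markers of other tissues are given in the account of the remaining lists.

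With each library left out in turn, 13 of the 33 calls passed in every refit: clec-17, clec-48, clec-49, clec-52, clec-60, clec-61, clec-80, clec-82, clec-86, clec-150, clec-166, clec-170 and clec-205. The other 20 ended in at least 1 refit. Calls ended for clec-1, clec-10, clec-84 and clec-139 without GR1395 replicate 1 (highest adjusted p 0.192). Calls ended for clec-41, clec-172, clec-210 and clec-258 without either GR1395 library or N2 replicate 2 (highest adjusted p 0.184). Calls ended for clec-3, clec-50 and clec-264 without GR1395 replicate 1 or N2 replicate 2 (highest adjusted p 0.29). They also ended for clec-85 and clec-173 without GR1395 replicate 2 or N2 replicate 2 (highest adjusted p 0.148), for clec-72 without GR1395 replicate 1 or N2 replicate 1 (highest adjusted p 0.265), for clec-187 without GR1395 replicate 2 or N2 replicate 1 (highest adjusted p 0.198). The same held for clec-71 without N2 replicate 2 (highest adjusted p 0.0552), for clec-54 without either GR1395 library or N2 replicate 1 (highest adjusted p 0.165), for clec-83 without either GR1395 library or either N2 library (highest adjusted p 0.29), for clec-26 without either HW3826 library, either GR1395 library or N2 replicate 2 (highest adjusted p 0.285), as well as for clec-88. Other settings ended the calls of clec-83 with upper-quartile scaling (0.0533), with a stricter filter (0.0504) and with only the 4 libraries compared (0.0543), of clec-26 with only those libraries (0.0636) and in DESeq2 (0.0928), and of clec-3 (0.0543) and clec-264 (0.0583) in DESeq2, each given as adjusted p.

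The direct comparison of HW3826 with GR1395 asks where the array strains differ from each other. Of the 128 tested lectin genes, 15 were higher in HW3826 and 12 lower, against 7.33% higher and 7.17% lower among all tested genes. The 27 calls are 21.1% of the tested lectins, beside 14.5% of all genes. The median log2 fold change was 0.11, against -0.01 for all genes, and 9 of the 27 calls reached a 2-fold difference. Leaving out any HW3826 or GR1395 library gave fewer lectin calls and fewer calls among all genes. In this comparison the summed intestinal markers were 5085 to 5191 CPM in HW3826 and 3965 to 4122 CPM in GR1395, and 3 of the 8 (act-5, pho-1 and ifb-2) were called higher. With a replicate block 2 were called higher, and with only the 4 libraries compared 4 were higher and 1 lower. Fewer were called higher without either HW3826 library or GR1395 replicate 1, and more without either N2 library.

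The largest rise was that of clec-205 (V 1760893 to 1765305), with 6.91 and 5.99 CPM in HW3826, 1.58 and 2.16 CPM in GR1395 and 4.25 and 4.49 CPM in N2. The 3 strains did not overlap, with HW3826 highest and GR1395 lowest, and HW3826 was 3.57-fold above GR1395 (log2 fold change 1.84, SE 0.19, adjusted p = 4.82e-05). The gene numbered before it, clec-204, had 5.87 and 7.39 CPM in HW3826, against 2.49 and 3.45 CPM in GR1395 and was 2.30-fold higher (log2 fold change 1.20, SE 0.19, adjusted p = 0.000985). clec-166 on chromosome IV had 47.1 and 46.3 CPM in HW3826, 26.1 and 24.2 CPM in GR1395 and 39.6 and 34.0 CPM in N2, and HW3826 was 1.91-fold above GR1395 (log2 fold change 0.94, SE 0.09, adjusted p = 2.23e-05). clec-166 was called in all 3 comparisons: above N2 in HW3826, below N2 in GR1395, and apart between both array strains. The Bacillus-linked gene clec-4 was 1.63-fold higher in HW3826 (edgeR adjusted p = 0.000108), with the values given above.

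Smaller or less even rises followed. clec-78 had 3.95 and 2.26 CPM in HW3826, against 1.82 and 1.35 CPM in GR1395. clec-266, whose exons overlap kqt-1 on the opposite strand, had 4.07 and 2.62 CPM in HW3826, against 2.02 and 1.40 CPM in GR1395. The HW3826 libraries of these 2 genes differed from each other by more than 1.5-fold. clec-210 had 3.04 and 4.001 CPM in HW3826, against 2.15 and 1.80 CPM in GR1395. clec-225 had 2.45 and 2.47 CPM in HW3826, against 1.76 and 1.18 CPM in GR1395. clec-150 had 79.7 and 74.0 CPM in HW3826, against 55.8 and 49.9 CPM in GR1395. In none of these 5 genes did the strains overlap. clec-170 had 9.20 and 8.92 CPM in HW3826, against 6.46 and 6.20 CPM in GR1395 (log2 fold change 0.56). The other rises were clec-49, clec-48, clec-50, clec-173 and clec-83, with log2 fold changes of 0.30 to 0.53.

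The largest fall was that of clec-3, by the values given above, at 6.22-fold lower in HW3826 than in GR1395 (log2 fold change -2.64, SE 0.39, adjusted p = 0.000639). clec-145, whose exons overlap Y48E1B.8 on the opposite strand, had 0.187 and 0.105 CPM in HW3826, against 0.691 and 0.487 CPM in GR1395, below 1 CPM in all libraries, and was 3.83-fold lower (log2 fold change -1.94, SE 0.50, adjusted p = 0.0208). clec-61 was 2.51-fold lower in HW3826 (edgeR adjusted p = 0.00663). clec-10 had 6.78 and 6.70 CPM in HW3826, against 14.7 and 16.9 CPM in GR1395 and was 2.27-fold lower (log2 fold change -1.18, SE 0.11, adjusted p = 3.27e-05), and clec-17 was 2.001-fold lower (log2 fold change -1.001, SE 0.11, adjusted p = 0.000117). For these 5 genes no HW3826 library reached a GR1395 library. clec-185 had 2.83 and 3.02 CPM in HW3826, against 4.75 and 6.67 CPM in GR1395. clec-43 had 5.49 and 6.12 CPM in HW3826, against 8.46 and 8.74 CPM in GR1395. clec-264 had 8.79 and 8.44 CPM in HW3826, against 14.0 and 11.4 CPM in GR1395. clec-71 and clec-7 complete the 10 largest falls, and these 5 genes had log2 fold changes of -0.92 to -0.46. The other falls were clec-5 (-0.43) and clec-84 (-0.34) on the log2 scale.

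With each library left out in turn, 7 of the 27 calls passed in every refit: clec-3, clec-4, clec-10, clec-17, clec-166, clec-204 and clec-205. The other 20 ended in at least 1 refit. Calls ended for clec-43, clec-71, clec-78 and clec-266 without HW3826 replicate 1 or either GR1395 library (highest adjusted p 0.331). Calls ended for clec-5, clec-50, clec-84 and clec-145 without either HW3826 library or GR1395 replicate 1 (highest adjusted p 0.291). They also ended for clec-7 and clec-210 without HW3826 replicate 2 or either GR1395 library (highest adjusted p 0.262), for clec-173 and clec-225 without either HW3826 library or either GR1395 library (highest adjusted p 0.232), for clec-170 without GR1395 replicate 1 (highest adjusted p 0.0544), for clec-185 without GR1395 replicate 2 (highest adjusted p 0.072). The same held for clec-49 without HW3826 replicate 1 or GR1395 replicate 1 (highest adjusted p 0.0651), for clec-150 without HW3826 replicate 1 or GR1395 replicate 2 (highest adjusted p 0.0744), for clec-48 without HW3826 replicate 1, GR1395 replicate 1 or either N2 library (highest adjusted p 0.202), for clec-61 without HW3826 replicate 2 (highest adjusted p 0.0505), for clec-264 without HW3826 replicate 2 or GR1395 replicate 1 (highest adjusted p 0.158), for clec-83 without either HW3826 library or GR1395 replicate 2 (highest adjusted p 0.252). Other settings ended the calls of clec-71 (0.0603), clec-225 (0.0747), clec-145 (0.0734) and clec-173 (0.066) in DESeq2, of clec-173 with upper-quartile scaling (0.0601) and with a stricter filter (0.0592), and of clec-48 with only the 4 libraries compared (0.0701), each given as adjusted p.

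Over all 3 comparisons, 45 of the 128 tested lectin genes were called at least once and 83 were called in none. No called gene had overlapping libraries between the strains compared, but separate libraries were common among the 128 tested genes, called or not. They were seen in 74 genes for HW3826 and N2, 83 for GR1395 and N2, and 75 for HW3826 and GR1395. With 2 libraries a strain, separation thus adds little to a call. Calls were found on all chromosomes. On chromosome IV 37 tested genes gave 8 calls in HW3826 and 13 in GR1395 against N2, beside 6.61% and 16.1% of all tested genes of that chromosome. On chromosome V 47 tested genes gave 4 and 11, beside 7.85% and 17.2%. By level, the 45 tested genes under 1 CPM gave 2 calls in HW3826 and 2 in GR1395 against N2, while the 38 genes between 10 and 100 CPM gave 11 and 16. All genes were not split by level in this way, so the contrast is not shown to be particular to lectins. Depth limits what can be called among the low genes.

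**Figure D3:**
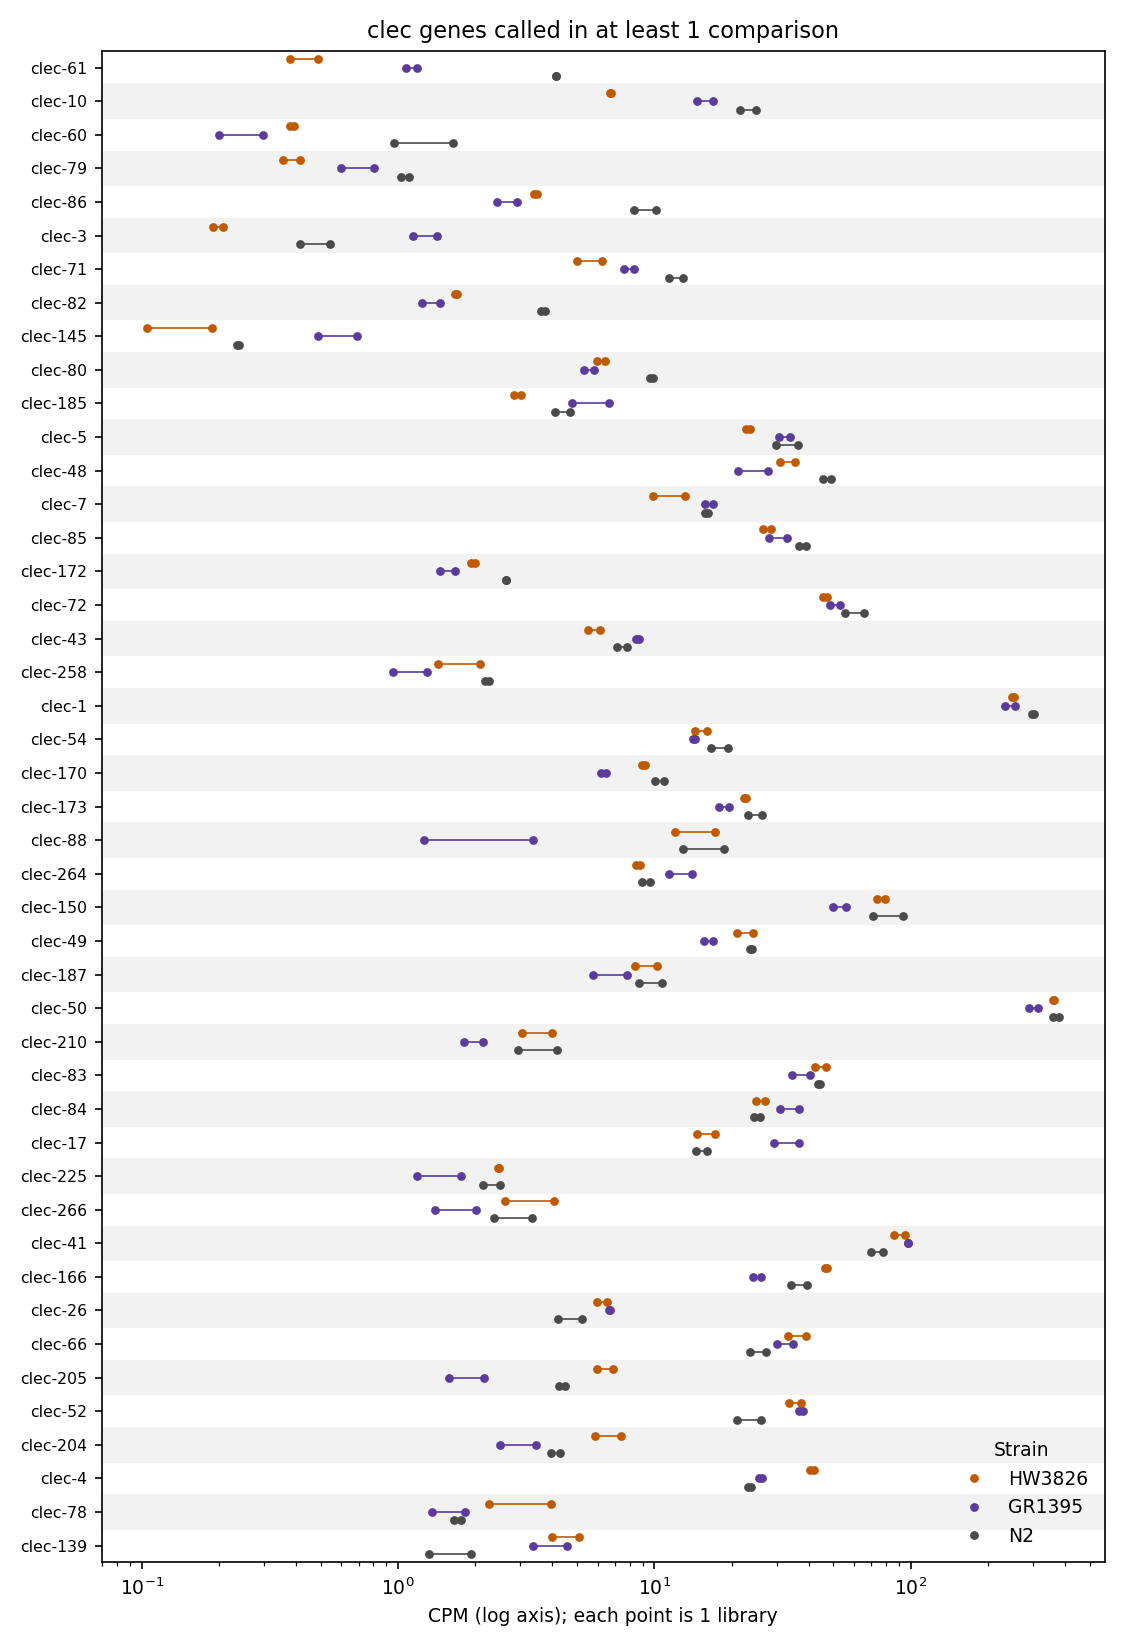
CPM per library on a log axis for the 45 C-type lectin genes called in at least 1 comparison, 1 point per library joined within a strain, with HW3826 above GR1395 and N2 in each band and genes ordered by their log2 fold change in HW3826 against N2. At the top clec-61 has 0.487 and 0.377 CPM in HW3826, 1.07 and 1.18 CPM in GR1395 and 4.13 and 4.12 CPM in N2, and at the foot clec-139 is lowest in N2.

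Neighbouring lectin genes did not always move together. In 4 of the 20 runs, 2 or more genes were called in the same comparison. On chromosome II the run from clec-143 to clec-61 (5 genes) held clec-60 and clec-61, which were lower in both array strains than in N2. In the same run clec-143 had 0.806 and 1.55 CPM in HW3826, 1.16 and 1.06 CPM in GR1395 and 1.06 and 1.18 CPM in N2 and was not called, and clec-58 and clec-59 were below the filter, clec-59 with no count in any library.

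On chromosome IV the run of clec-80, clec-82, clec-83, clec-84 and clec-85 (IV 2823746 to 2855456) had all 5 genes tested. clec-80, clec-82 and clec-85 were lower in both array strains, and clec-83 was lower in GR1395. clec-84 went the other way in GR1395, with 24.9 and 27.0 CPM in HW3826, 36.7 and 30.9 CPM in GR1395 and 24.6 and 25.7 CPM in N2, a log2 fold change of 0.38 against N2 (edgeR adjusted p = 0.0172). In HW3826 clec-83 and clec-84 had log2 fold changes of 0.02 and 0.04 and were not called. Within this run the values in HW3826 thus lay from -1.13 to 0.04 and those in GR1395 from -1.49 to 0.38.

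A second run on chromosome IV, 12 genes from clec-67 to clec-78 (IV 3922165 to 4014235), was tested in full. clec-71, clec-72 and clec-79 were lower in HW3826 than in N2, and clec-71 and clec-72 in GR1395. clec-72 had 47.3 and 45.6 CPM in HW3826, 48.4 and 52.8 CPM in GR1395 and 65.5 and 55.6 CPM in N2. Both N2 libraries were above the other 4. clec-76 had 10.7 and 11.9 CPM in HW3826, 11.7 and 8.32 CPM in GR1395 and 8.48 and 8.28 CPM in N2 and was not called. clec-68, clec-70, clec-174, clec-73, clec-74 and clec-75 stayed near or below 1 CPM in all libraries, and none of them was called.

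The run from clec-165 to clec-170 on chromosome IV (IV 1245171 to 1274425) had 5 tested genes of 6. clec-166 and clec-170 were lower in GR1395 than in N2 and higher in HW3826 than in GR1395. clec-169 had 1.05 and 1.11 CPM in HW3826, 0.528 and 0.635 CPM in GR1395 and 1.34 and 0.894 CPM in N2. clec-165 had 1.11 and 2.18 CPM in HW3826, 1.09 and 1.04 CPM in GR1395 and 1.13 and 0.458 CPM in N2. Neither was called. clec-167 stayed below 1 CPM and clec-168 had no count in any library.

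**Figure D4:**
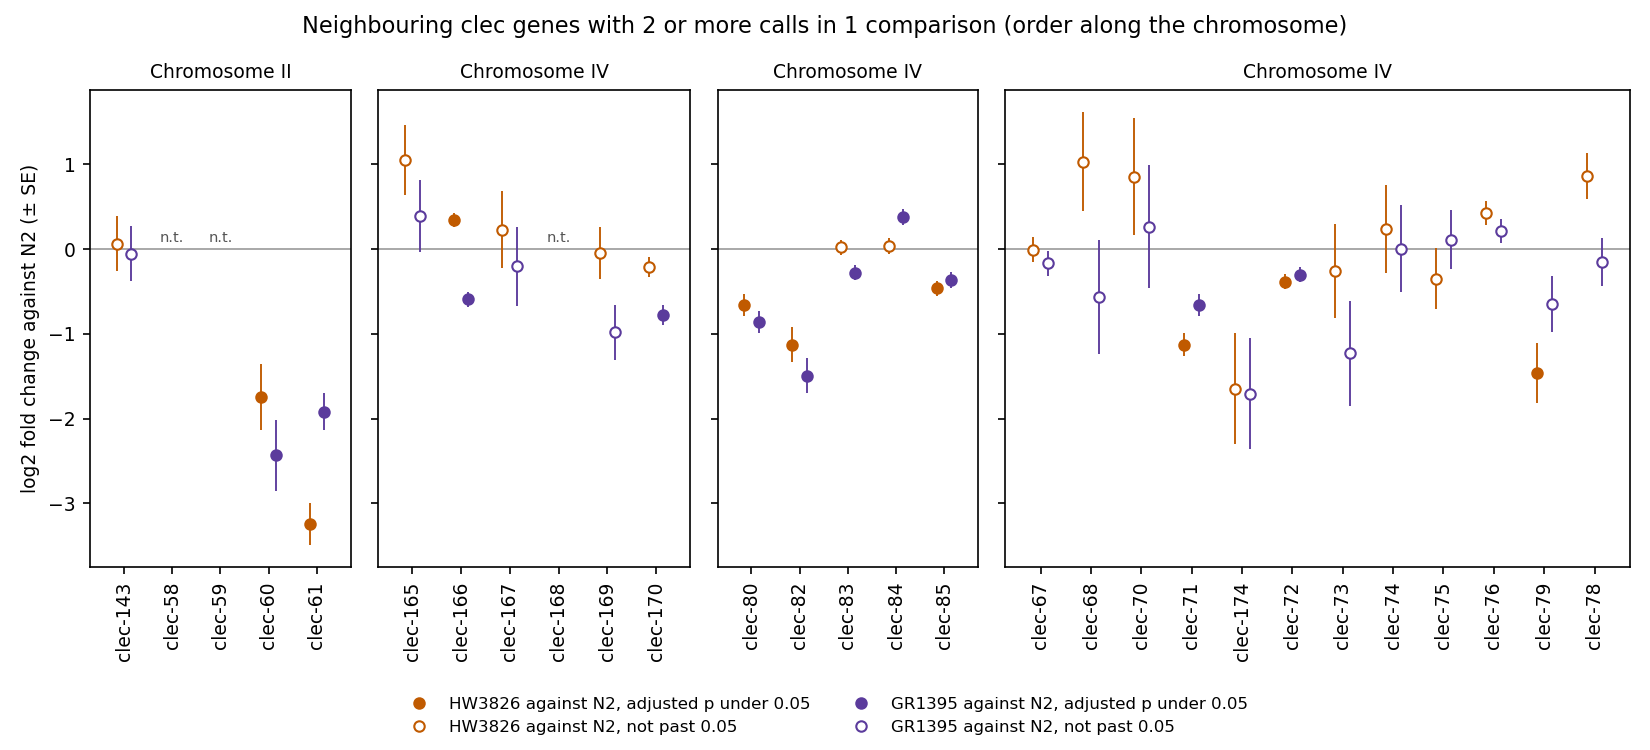
Log2 fold change against N2 (edgeR, bars are standard errors) of the members of the 4 runs of neighbouring C-type lectin genes that hold 2 or more calls in a comparison, in genome order, with HW3826 drawn left of GR1395. Filled points have an adjusted p under 0.05, open points do not, and n.t. marks genes that were not tested. In the run from clec-80 to clec-85, clec-82 is at -1.49 and clec-84 at 0.38 in GR1395 against N2.

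Other families of intestinal defence were read in the same fit. Lysozymes and saposin-like proteins, which break or puncture bacterial envelopes and aid digestion, numbered 47, of which 33 were tested. In GR1395, 8 of the 33 were lower than in N2, beside 8.15% of all tested genes. spp-14, a saposin-like gene, had 953 and 869 CPM in HW3826, 605 and 549 CPM in GR1395 and 814 and 1027 CPM in N2. Another, spp-5, had 394 and 371 CPM in HW3826, 267 and 258 CPM in GR1395 and 362 and 400.1 CPM in N2. Both genes were lower in both GR1395 libraries than in the other 4. The other falls were spp-2, spp-3, spp-4, spp-17, spp-23 and ilys-5, with log2 fold changes of -0.86 to -0.37. Without N2 replicate 2, 5 were lower and 1 higher. With the length trend removed, 10 were lower. In HW3826, lys-6 and spp-23 were higher than in N2 and spp-2 lower, beside 3.54% higher and 2.46% lower among all tested genes. The count of 2 higher genes was 1 without HW3826 replicate 1 and 0 without HW3826 replicate 2, and without either GR1395 library 3 were higher and 2 lower. Between the array strains, 8 were higher in HW3826 and 1, lys-3, was lower, beside 7.33% and 7.17% of all tested genes. The lys-3 call ended without either HW3826 library or GR1395 replicate 1. With only the 4 libraries compared 9 were higher and 2 lower. Fewer were higher without either HW3826 library or GR1395 replicate 1, and more without either N2 library or GR1395 replicate 2.

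The PMK-1 pathway, from the adaptor tir-1 through kinases to the transcription factors atf-7 and skn-1, had 10 genes, all tested. In GR1395, 7 were higher than in N2 (tpa-1, skn-1, tir-1, atf-7, nipi-3, dkf-2 and vhp-1), beside 7.93% of all tested genes, with log2 fold changes of 0.33 to 0.63. tir-1 had 133 and 123 CPM in HW3826, 146 and 126 CPM in GR1395 and 103 and 86.8 CPM in N2. vhp-1, a phosphatase of MAP kinases, had 181 and 189.8 CPM in HW3826, 263 and 232 CPM in GR1395 and 172 and 138 CPM in N2. In both genes the N2 libraries were the lowest. In HW3826, 3 were higher than in N2 (tir-1, skn-1 and dkf-2), beside 3.54% of all tested genes. That count was 0 without HW3826 replicate 1 or N2 replicate 2, 1 without HW3826 replicate 2 and 6 without N2 replicate 1. With the length trend removed it was 2. The count of 7 in GR1395 was 4 without GR1395 replicate 1. nsy-1, sek-1 and pmk-1, the kinases of the cascade itself, passed in neither strain against N2, with log2 fold changes of -0.04 to 0.14 in HW3826 and 0.15 to 0.26 in GR1395.

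The called reporters of PMK-1 activity outside the lectins did not share a direction in GR1395. Of 7 names, 5 were found in the table and tested. In GR1395 against N2, 4 of the 5 had a positive log2 fold change and 1 a negative one (median 0.15). In HW3826 against N2, 1 was positive and 4 negative (median -0.13). irg-5 had 8.08 and 8.002 CPM in HW3826, 48.9 and 23.6 CPM in GR1395 and 7.77 and 9.33 CPM in N2. Both GR1395 libraries were above the other 4 but 2-fold apart, and the log2 fold change against N2 was 2.03 (SE 0.39, edgeR adjusted p = 0.0362). K08D8.5 had 10.8 and 11.8 CPM in HW3826, 8.77 and 9.29 CPM in GR1395 and 15.3 and 16.6 CPM in N2 and was lower than in N2 in both array strains, with adjusted p-values of 0.014 for HW3826 and 0.000395 for GR1395. Without HW3826 replicate 1 the HW3826 call ended, and the irg-5 call in GR1395 ended without either HW3826 library or either N2 library, in limma-voom, with no expression filter and with only the 4 libraries compared. Together with clec-85, which was lower, and clec-67, which was not called, these reporters thus held genes in both directions in GR1395, with irg-5 the only rise called. In HW3826 the called reporters, K08D8.5 and clec-85, were both lower.

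Of 10 intestinal regulators of defence and stress genes, 4 were higher in GR1395 than in N2 (elt-2, daf-16, hlh-30 and zip-10), beside 7.93% of all tested genes. In HW3826 2 were higher (elt-2 and daf-16), beside 3.54%. daf-16, the transcription factor of the insulin pathway, had 148 and 166 CPM in HW3826, 200.2 and 172 CPM in GR1395 and 124 and 101 CPM in N2. The N2 libraries were the lowest. The count of 2 in HW3826 was 1 without HW3826 replicate 2 or N2 replicate 2, in the last case with 1 lower gene as well. The markers of other tissues differed between strains too. The 5 pharynx genes summed to 2654 to 2658 CPM in GR1395 and 2312 to 2330.1 CPM in HW3826, against 2030.2 to 2272 CPM in N2, and 3 of them (myo-2, myo-1 and pha-4) were higher in GR1395 than in N2, again beside 7.93% of all tested genes. The 5 body wall muscle genes summed to 6099 to 6341 CPM in GR1395 and 5852 to 5982 CPM in HW3826, against 4871 to 5253 CPM in N2. Of these, unc-54 and myo-3 were higher in GR1395, beside 7.93% of all tested genes, and unc-22 in HW3826, beside 3.54%. The 5 neuron genes summed to 391 to 422 CPM in GR1395 and 339 to 346 CPM in HW3826. In N2 they summed to 353 to 355 CPM. Of the 5, unc-31 was higher in GR1395, again beside 7.93%. Without either GR1395 library the pharynx and neuron calls ended and 1 muscle call was left, as it was without either HW3826 library. Without N2 replicate 2 fewer pharynx genes were called and the neuron call ended. With the length trend removed, 1 pharynx call and 1 muscle call were left in GR1395 and the neuron call ended. The unc-22 call in HW3826 ended without either HW3826 library and with the length trend removed. The 6 epidermis genes summed to 225 to 241 CPM in GR1395 and 215 to 231 CPM in HW3826, against 189 to 228 CPM in N2. The 3 pharyngeal gland genes summed to 3.24 to 3.72 CPM in GR1395 and 3.13 to 3.41 CPM in HW3826, against 3.73 to 4.27 CPM in N2. The 2 coelomocyte genes summed to 25.7 to 27.3 CPM in GR1395 and 21.0 to 22.5 CPM in HW3826, against 22.9 to 23.9 CPM in N2. No marker of these lists was at 0 in a whole strain, and the part of tissue proportions in the lectin values was not tested.

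A neuronal member, clec-38, which is known to restrain UNC-40-driven axon outgrowth, was low in all libraries, with 1.07 and 1.17 CPM in HW3826, 1.02 and 1.1003 CPM in GR1395 and 0.610 and 0.654 CPM in N2. Both array strains were above N2, and neither difference passed the test (edgeR adjusted p = 0.144 in HW3826 and 0.134 in GR1395). clec-38, clec-39, clec-42, clec-67 and clec-91 were picked by name and not by the rule for named genes, with their values already seen.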

How the data were processed

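The authors deposited raw counts per gene for 6 libraries and gene lengths in bases. The deposited log2 values equalled log2 of the library-scaled counts plus 8 to within 1e-10 and were not used further. The submitters' processing notes name the build ce11 and HISAT2 1.10.0, with no role for either. The sources used here do not give the counter, its annotation or its strand setting. Names and positions came from the WBcel235 annotation by identifier for 20105 of 20190 genes.

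From the counts, edgeR 4.0.16 (R 4.3.3, limma 3.58.1) was run on the whole table with TMM factors (0.977 to 1.034), its default filter, robust quasi-likelihood dispersions and 1 coefficient per strain, leaving 3 residual degrees of freedom (median prior 10.5). Standard errors were derived from the F statistic, and p-values were adjusted by Benjamini-Hochberg over all tested genes. The median biological coefficient of variation was 8.32%. Libraries of a strain differed beyond sampling noise, with chi-square per degree of freedom of 8.71 in HW3826, 12.9 in GR1395 and 23 in N2. Alternatives were DESeq2 1.42.0, limma-voom, other scalings and filters, a length trend removed, a replicate block, the compared libraries alone and each library left out. The length trend was strongest in N2 replicate 2, at 0.117 for the shortest genes and -0.114 for the longest. In N2 replicate 1 the values were 0.0141 and -0.00496. GR1395 replicate 2 came next in size, with -0.0637 and 0.0534. N2 replicate 2 serves both comparisons with N2, and the reported fit does not correct for the trend. Named genes were the 10 highest per length, the 10 largest called rises and falls per comparison, members of runs with 2 or more calls, and called genes of the other lists. The members and lists were chosen with earlier results of these data known. Reads from GFP were not analysed here.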

Additional observations from a re-analysis of the deposited data

How the results depend on the processing

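For 66 lectin genes, no fold change changed sign where it passed the threshold in the reported fit or in the refit. Uncalled values near 0 did change sign. Signs were not followed in this way for genes of the other lists, nor with the crossed replicate numbers described below. With each library left out in turn, the lectin calls in HW3826 against N2 numbered 11 to 19 (4 to 6 higher, 7 to 13 lower). In GR1395 against N2 they numbered 19 to 32 (2 to 8 higher, 17 to 25 lower), and in HW3826 against GR1395 14 to 29 (7 to 17 higher, 5 to 12 lower). All genes called also fell in number where a HW3826 or GR1395 library of the comparison was left out. Without N2 replicate 2 they fell in both comparisons with N2, and without N2 replicate 1 they rose. DESeq2 gave 5 higher genes in GR1395 in place of 8. Without an expression filter 208 lectins were tested and 27 were called in HW3826 against N2, 39 in GR1395 against N2 and 28 between the array strains. With at least 2 CPM in 2 libraries 77 were tested, with 16, 31 and 25 calls in the same order. All genes called numbered 1160, 2712 and 2448 without a filter and 831, 2089 and 1868 with the stricter one, in that order. No scaling moved the median log2 fold change of all genes by 0.1.

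Deviations of same-numbered libraries showed no clear positive correlation between strains. The correlations were 0.00974 for HW3826 with GR1395, -0.184 for HW3826 with N2 and 0.0135 for GR1395 with N2. Whether same-numbered libraries were prepared together cannot be told from these values. With a replicate block, 14 lectins (5 higher, 9 lower) were called in HW3826 against N2. In GR1395 against N2 there were 27 (7 and 20), and in HW3826 against GR1395 21 (11 and 10). All genes called with the block numbered 594, 1766 and 1664 in the same order, against 902, 2416 and 2179 in the reported fit. In HW3826 against N2 the block ended the calls of clec-7, clec-41, clec-48, clec-72, clec-79 and clec-204 (edgeR adjusted p 0.0523 to 0.0964). In GR1395 against N2 it ended those of clec-26, clec-54, clec-72, clec-83, clec-88 and clec-187 (0.0515 to 0.0823). Between the array strains it ended those of clec-48, clec-71, clec-83, clec-84, clec-173 and clec-225 (0.0514 to 0.0842). With the numbers crossed between HW3826 and N2, an alternative chosen after seeing the data, 38 lectins (13 higher, 25 lower) and 2509 genes in all were called. Differences under a few counts were not detectable, and with 2 libraries a strain a called gene can rest on 1 library.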
